A study of Mus musculus with 4 samples.

Results

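The genes described are Nfe2l2, which encodes the transcription factor NRF2, its inhibitor Keap1 and 7 antioxidant genes that NRF2 is known to activate: Nqo1, Gclc, Gclm, Srxn1, Txnrd1, Gsr and Gss. They are 9 of the 19579 genes that the probe names could be matched to. The table of non-normalized signals was searched for probes whose name equals one of these symbols, and Srxn1 was found under its older name NPN3, which gave 19 of the 45281 probes. By the names in the table there were 2 probes for NFE2L2, 4 for KEAP1, 2 for NQO1, 3 for NPN3, 4 for GSS and 1 each for GCLC, GCLM, TXNRD1 and GSR. The RNA came from the subcutaneous white fat of C57BL/6 mice aged 8 to 12 weeks. FtMT-Adip mice are transgenic for mitochondrial ferritin in fat, where this protein keeps iron stored within the mitochondria. WT mice are wild-type. A high-fat diet containing doxycycline was given to both groups for 3 weeks, and each group is represented by 2 arrays. What drives the transgene, and whether an array holds an individual animal or a pool, is not given in the sources used here, so p-values measure the spread between these arrays only, which may be technical.

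NRF2 is a transcription factor that cells hold at a low level when they are not stressed. KEAP1 binds it and presents it to a ubiquitin ligase for destruction, and oxidants or electrophiles that modify cysteines of KEAP1 let NRF2 accumulate. NRF2 then pairs with a small MAF protein on antioxidant response elements and raises genes for glutathione synthesis, for the reduction of thioredoxin and for the detoxification of quinones. Much of this control acts on the NRF2 protein, which an expression array does not measure.

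The core of the antioxidant response element, TGACNNNGC, was searched on both strands of promoters from RefSeq (GRCm38.p6), each holding 250 bases before and 50 bases after an annotated start. Of 32851 promoters, 12.4% held at least 1 copy. The table had promoters for 7 of the 9 genes, and 4 of these genes held a copy. Counted by promoter, as in the share of all promoters, 4 of their 9 windows held a copy. The windows around the copies are shown because these letters are what NRF2 and its MAF partner are known to read. Capitals mark the core, written as GCNNNGTCA where it lies on the opposite strand, and each window runs 5′ to 3′ on the strand of its gene.

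Nfe2l2 (chr2:75704870-75704913, minus strand): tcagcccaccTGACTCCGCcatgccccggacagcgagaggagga
Gclm (chr3:122245398-122245456, plus strand): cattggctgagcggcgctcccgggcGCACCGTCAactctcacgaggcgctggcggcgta
Txnrd1 (chr10:82859089-82859147, plus strand): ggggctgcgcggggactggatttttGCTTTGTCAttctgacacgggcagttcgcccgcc
Srxn1 (chr2:152105542-152105570, plus strand): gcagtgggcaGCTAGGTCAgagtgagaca

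The Nfe2l2 core starts 240 bases before the start site, the Gclm core 134 bases before and the Txnrd1 core 92 bases before 1 of the 3 annotated starts of that gene. The Srxn1 core begins at base 29 after the start. The windows of Keap1, Nqo1 and Gss held no copy, which says only that these letters are not in those 300 bases. A copy is a match of letters and not a measured binding site.

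Srxn1 was higher in FtMT-Adip, and so was Gss by 1 of its 4 probes. With limma, and p-values adjusted by Benjamini-Hochberg over the whole set of 20797 tested probes, 3 of the 19 probes passed an adjusted p of 0.05 and were higher in FtMT-Adip, and 0 were lower. Of all tested probes 3.28% were called higher, 4.16% lower and 7.44% in either direction. A probe was tested when its signal exceeded the 95th percentile of the probes that read olfactory or vomeronasal receptors, which are made in the nose, on at least 2 of the 4 arrays. That level was 120.7 and 123.5 on the FtMT-Adip arrays and 120.8 and 119.6 on the WT arrays. The filter passed 16 of the 19 probes, and 15 of them were above background on all 4 arrays. The other one, the Gss probe ILMN_1253631, passed through its FtMT-Adip arrays alone and is left out of the next counts, since the filter ties it to a higher value there. Of the 15 probes above background on all 4 arrays, 7 were higher and 0 lower at an unadjusted p under 0.05, and 10.6% of all such probes were higher. On the log2 scale used for the test, 10 of the 15 had both FtMT-Adip arrays above both WT arrays, where 27.0% of all such probes did so, and the other 5 overlapped. Several of these probes read the same gene and are not independent of each other. Counted by gene, each by its probe of highest mean signal, 8 of the 9 genes were tested and 2 were called higher. At an unadjusted p under 0.05 in limma, 5 of the 8 genes were higher and 0 lower. Of all genes tested, 3.56% were called higher, and 11.1% were higher at an unadjusted p under 0.05. The genes described were chosen with earlier results of these data known, so these counts beside the shares are descriptions and not tests.

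**Figure D1:**
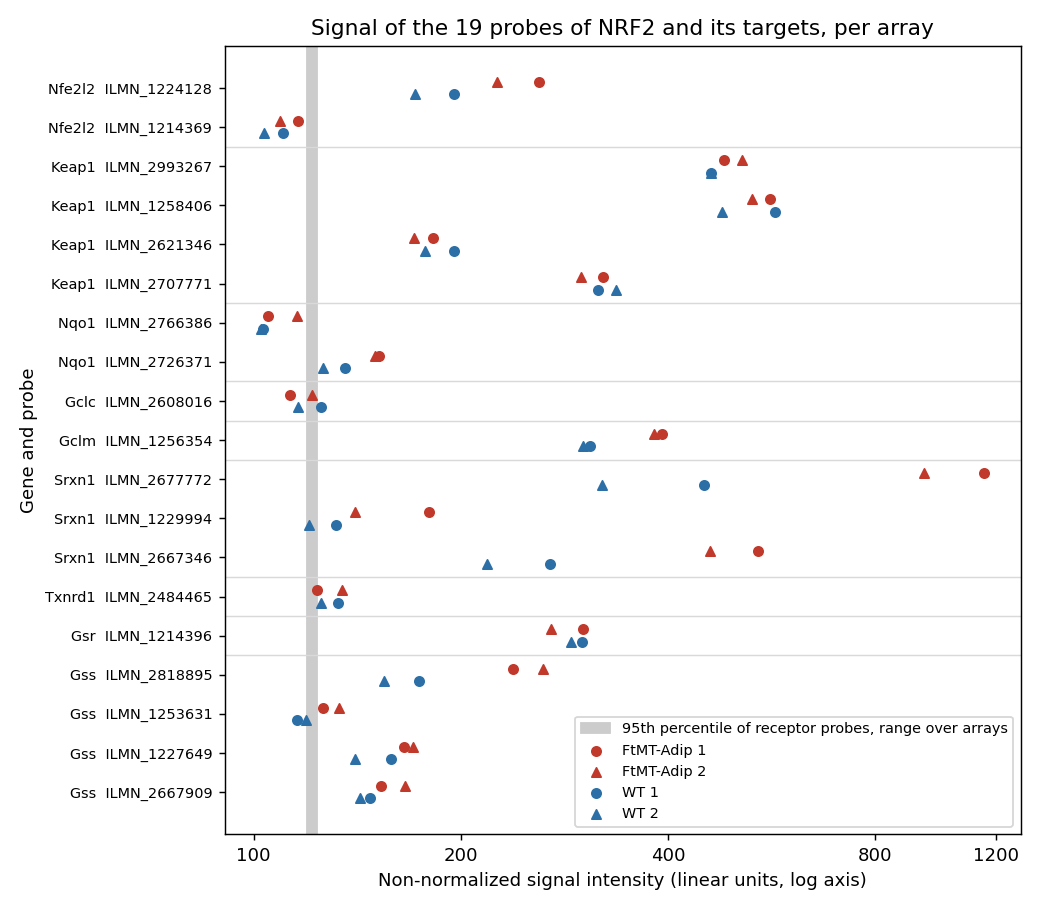
Non-normalized signal intensity (linear units on a log axis) of each of the 19 probes, with 2 FtMT-Adip arrays in red above 2 WT arrays in blue, circles for replicate 1 and triangles for replicate 2. The grey band spans the 95th percentile of the receptor probes, 119.6 to 123.5. The wide gap between the groups is at the Srxn1 probe ILMN_2677772, 942.5 to 1153.6 against 320.8 to 451.2.

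The arrays had median signals of 116.6 and 119 in FtMT-Adip and 117.7 and 116.5 in WT, and between 19717 and 20427 probes per array were above background. Over all probes the number called was 652 without FtMT-Adip 1, 929 without WT 1 and 695 in the authors' normalized values, against 1548. The tissue label names fat, and some adipocyte genes, Adipoq, Lep and Pnpla2 among them, had high signals in both groups. All 8 adipocyte markers examined were tested and 5 were lower in FtMT-Adip, Adipoq among them (4405.4 and 6069.4 in FtMT-Adip, 13871.8 and 14168.4 in WT). Their summed signal was 27775 and 43259 in FtMT-Adip against 73926 and 69734 in WT. Of the 5, Fabp4 (113.4 and 119.6 in FtMT-Adip, 146.8 and 138.5 in WT) was below background on both FtMT-Adip arrays. It was tested only through its WT arrays, so its direction is tied to the filter. Of 8 macrophage markers 6 were higher, Cd68 and Adgre1 among them, and their summed signal was 15749 and 14250 in FtMT-Adip against 7243 and 7622 in WT. Of all genes tested 3.56% were called higher and 4.29% lower. Of 5 endothelial markers 2 were lower, of 3 red cell markers 3 were lower, and of 4 mast cell markers 2 were higher and 1 lower. Of 3 tested neutrophil markers 1 was lower, S100a8 (log2 change -2.55, adjusted p = 0.00199 in limma), and of 5 preadipocyte and fibroblast markers 1 was lower, Dpt (log2 change -0.98, adjusted p = 0.00617 in limma). None of 5 T and B cell markers and neither of the tested brown adipocyte markers was called. Ucp1 read 110.2 and 132 in FtMT-Adip and 498.1 and 108.1 in WT, so the WT arrays differed. Cidea read 632.9 and 1397.4 in FtMT-Adip and 839.1 and 225.5 in WT. Of 5 skeletal muscle markers 4 were tested and 1 was higher, with a summed signal of 4930 and 1709 in FtMT-Adip against 969.5 and 989.5 in WT. Some of these signals were high on FtMT-Adip 1 alone. Myh4, a muscle myosin gene, read 396.6 and 119.9 in FtMT-Adip and 98.4 and 104.4 in WT, and was not tested. The epithelial keratin gene Krt8 read 313.5 and 139.9 in FtMT-Adip and 129.1 and 133.2 in WT and was not called (log2 change 0.89, adjusted p = 0.245 in limma), and Krt18 read 186.1 and 109.8 in FtMT-Adip and 108.9 and 104.9 in WT and was not tested. Csn2 passed background on WT 2 alone, and Retnlg, Elovl3, Krt14 and Epcam on no array. In bulk tissue, fewer cells of a type and less RNA per cell cannot be told apart, and the part these markers have in the results below was not tested.

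Nfe2l2 itself, the gene for NRF2, was measured by ILMN_1224128. Its signals were 259.4 and 225.9 in FtMT-Adip, against 195.5 and 171.3 in WT. Both FtMT-Adip arrays lay above both WT arrays. The mean log2 signal was 7.60 ± 0.24 in FtMT-Adip and 7.10 ± 0.15 in WT (SD, n = 2 each), a log2 change of 0.49 (SE 0.17, 95% interval 0.12 to 0.87). The adjusted p from limma was 0.122, so the difference did not pass the threshold, and without FtMT-Adip 1 the log2 change was 0.32 (adjusted p = 0.525). The second probe, ILMN_1214369, read 115.8 and 109.3 in FtMT-Adip and 110.4 and 103.4 in WT, was below background on all 4 arrays and was not tested.

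Keap1, the sensor that holds NRF2 down, was read by 4 probes above background on every array, and none of them was called. Signals of ILMN_1258406 were 562.7 and 529.7 in FtMT-Adip, against 573.2 and 479.2 in WT, so the FtMT-Adip arrays lay between the WT arrays. Signals of ILMN_2707771 were 322.3 and 298.9 in FtMT-Adip and 316.6 and 336.5 in WT, and those of ILMN_2621346 were 182.3 and 170.8 in FtMT-Adip and 195.6 and 177.7 in WT. Both of these pairs overlapped. ILMN_2993267 read 482.5 and 512.7 in FtMT-Adip and 461.7 and 462.5 in WT, without overlap. The log2 changes of the 4 probes ran from -0.13 to 0.08, with adjusted p from 0.657 to 0.953 in limma. Their 95% intervals reached as low as -0.48 and as high as 0.42, so changes within those bounds were not resolved.

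**Figure D2:**
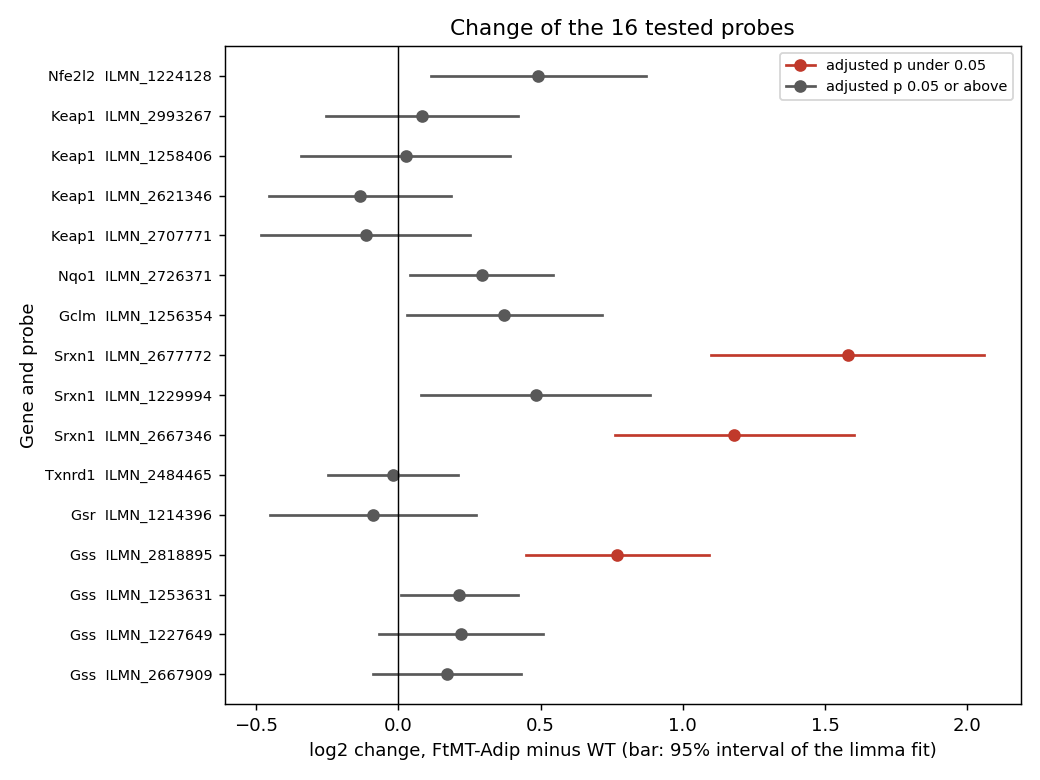
Log2 change, FtMT-Adip minus WT, of the 16 tested probes with the 95% interval of the limma fit. The 3 probes in red passed an adjusted p of 0.05, namely Srxn1 at 1.58 and 1.18 and Gss at 0.77, and the other 13 in grey did not.

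Glutathione is made in 2 steps. Glutamate-cysteine ligase, a catalytic subunit from Gclc and a modifier subunit from Gclm, joins glutamate to cysteine, and glutathione synthetase from Gss adds glycine. The Gclc probe ILMN_2608016 read 113 and 121.5 in FtMT-Adip and 125.1 and 116.1 in WT. It was above background on the WT 1 array alone and was not tested, so the level of the catalytic subunit's transcript was not measured by this array. Gclm was measured by ILMN_1256354, with signals of 392.8 and 382.4 in FtMT-Adip against 307.7 and 301.3 in WT. The FtMT-Adip arrays were both higher than the WT arrays, and the arrays of each group lay close together. The mean log2 signal was 8.40 ± 0.12 in FtMT-Adip and 8.03 ± 0.03 in WT (SD, n = 2 each), a log2 change of 0.37 (SE 0.15, 95% interval 0.03 to 0.71) that was not called (adjusted p = 0.197, limma).

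Gss was called higher by ILMN_2818895. Signals were 238.5 and 263.4 in FtMT-Adip, against 173.8 and 154.8 in WT. Every FtMT-Adip array exceeded every WT array. The mean log2 signal was 7.66 ± 0.05 in FtMT-Adip and 6.89 ± 0.13 in WT (SD, n = 2 each), which is 1.71-fold higher (log2 change 0.77, SE 0.14, 95% interval 0.45 to 1.09, adjusted p = 0.0134 in limma). The adjusted p was 0.0591 without WT 2, with a log2 change of 0.68.

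The other 3 Gss probes did not pass. ILMN_1227649 read 165.4 and 170.3 in FtMT-Adip and 158.2 and 140.4 in WT (log2 change 0.22, adjusted p = 0.368 in limma). ILMN_2667909 read 153.1 and 165.7 in FtMT-Adip and 147.7 and 142.7 in WT (log2 change 0.17, adjusted p = 0.449 in limma). ILMN_1253631 read 126.3 and 133.2 in FtMT-Adip and 115.6 and 119.2 in WT, where it was below background (log2 change 0.21, SE 0.09, adjusted p = 0.217 in limma). With the WT level not measured above background, the size of the difference at ILMN_1253631 was not resolved. As it was tested only through its FtMT-Adip arrays, its direction is tied to the filter. The 4 probes read the same gene and are not independent of each other, and their difference in size was not tested. Which stretch of the transcript each probe reads is not used here.

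Gsr encodes glutathione reductase, which returns oxidised glutathione to its reduced form with NADPH. Its probe ILMN_1214396 read 300.8 and 270.7 in FtMT-Adip, against 300.2 and 289.6 in WT, and the groups overlapped. The log2 change was -0.09 (SE 0.16, 95% interval -0.45 to 0.27, adjusted p = 0.814 in limma). Txnrd1 encodes the cytosolic thioredoxin reductase, a selenoprotein that keeps thioredoxin reduced. Its single probe ILMN_2484465 read 123.4 and 134.3 in FtMT-Adip and 132.4 and 125.1 in WT, close to the background level on all 4 arrays. The groups overlapped, with a log2 change of -0.02 (SE 0.10, 95% interval -0.25 to 0.21, adjusted p = 0.941 in limma). A change of transcript level at a signal this near to background is compressed on this scale.

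Srxn1 encodes sulfiredoxin, which repairs peroxiredoxins that peroxide has over-oxidised. Its probe ILMN_2677772 read 1153.6 and 942.5 in FtMT-Adip, against 451.2 and 320.8 in WT. The lower FtMT-Adip array was above the higher WT array by a wide margin. The mean log2 signal was 9.98 ± 0.30 in FtMT-Adip and 8.40 ± 0.34 in WT (SD, n = 2 each), a 2.99-fold rise (log2 change 1.58, SE 0.21, 95% interval 1.10 to 2.06, adjusted p = 0.0036 in limma).

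A second Srxn1 probe, ILMN_2667346, gave a rise of 2.27-fold. It read 540.5 and 460.1 in FtMT-Adip, against 269.3 and 218.1 in WT, again without overlap (log2 change 1.18, SE 0.19, 95% interval 0.76 to 1.60, adjusted p = 0.00698 in limma). The third, ILMN_1229994, read 180.1 and 140.3 in FtMT-Adip and 131.5 and 120.2 in WT, with WT 2 at the background level. It had the same order of groups but was not called (log2 change 0.48, SE 0.18, adjusted p = 0.154 in limma). Its value rested on which FtMT-Adip array was kept. The log2 change was 0.19 without FtMT-Adip 1 (adjusted p = 0.611) and 0.77 without FtMT-Adip 2, where it was called (adjusted p = 0.0102). On all 3 probes FtMT-Adip 1 read higher than FtMT-Adip 2, and WT 1 higher than WT 2. The log2 change of ILMN_2677772 ran from 1.34 without WT 2 to 1.82 without WT 1, and both called probes passed with any of the 4 arrays left out (highest adjusted p 0.0316).

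**Figure D3:**
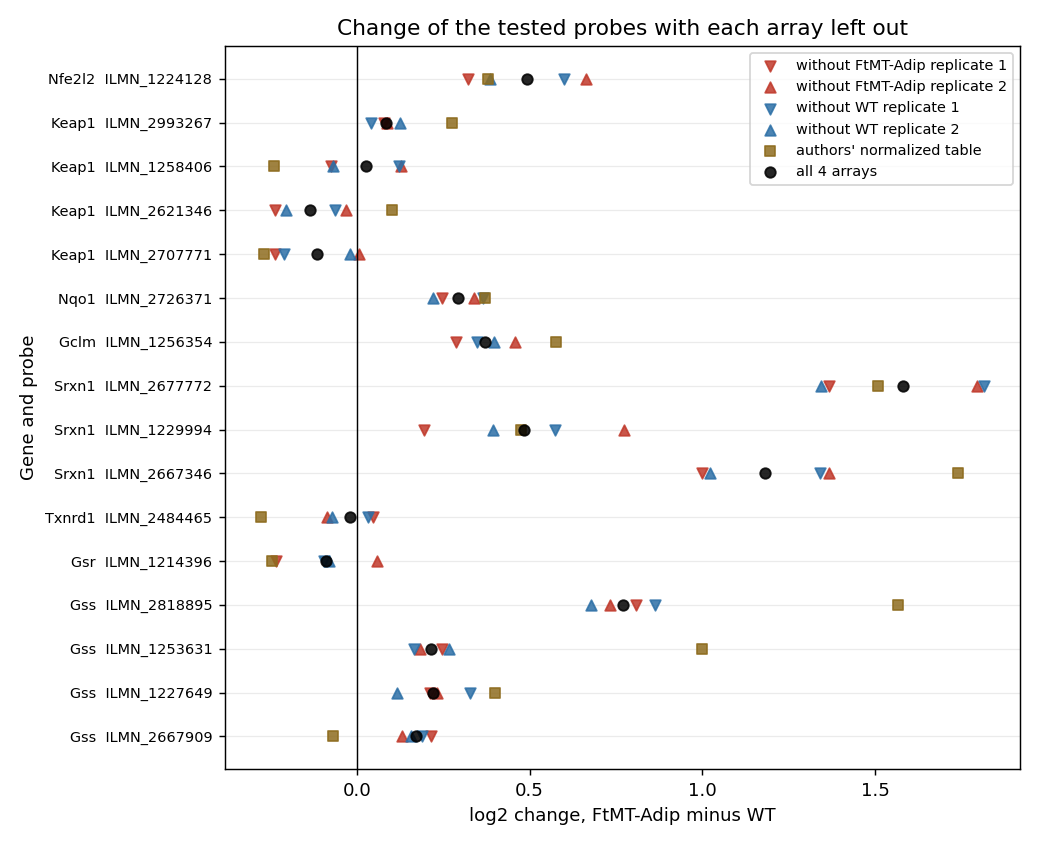
Log2 change, FtMT-Adip minus WT, of the 16 tested probes with all 4 arrays (black), with each array left out in turn (red for FtMT-Adip, blue for WT) and in the authors' normalized table (brown squares). Over these settings both called Srxn1 probes lay between 1.00 and 1.82, and the Gss probe ILMN_2818895 lay at 0.77 with all arrays and 1.56 in the authors' table.

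Nqo1 encodes a quinone reductase and is widely used as a readout of NRF2 activity. ILMN_2726371 read 151.9 and 150 in FtMT-Adip, against 135.8 and 126 in WT. The groups did not overlap, on signals little above background. The mean log2 signal was 6.70 ± 0.07 in FtMT-Adip and 6.40 ± 0.10 in WT (SD, n = 2 each), a log2 change of 0.29 (SE 0.11, 95% interval 0.04 to 0.55) with an adjusted p of 0.168 in limma. The other probe, ILMN_2766386, was below background on all 4 arrays, at 104.9 and 115.7 in FtMT-Adip and 103.1 and 102.5 in WT.

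In the authors' deposited table the ratio of the FtMT-Adip mean to the WT mean was 2.86 and 3.25 for the called Srxn1 probes, in the order above, and 2.94 for the Gss probe ILMN_2818895. Its unadjusted p-values for these 3 probes were 0.0334, 0.0112 and 0.00524 in the authors' deposited table. The other 16 probes each had a p of 0.0534 or more in the authors' deposited table, where 6.74% of all probes were under 0.05.

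The wider NRF2 pathway was followed through 5 lists of genes that hold 73 genes in all, of which 71 had a probe and 64 were tested, each by its probe of highest mean signal. Of the 64 tested genes, 8 were higher in FtMT-Adip and 0 were lower by limma, where 3.56% of all genes tested were higher and 4.29% lower. At an unadjusted p under 0.05 there were 16 higher and 5 lower, where 11.1% of all genes tested were higher and 10.9% lower. The median log2 change of the tested genes was 0.09, beside 0.01 for all 14591 genes tested. The 8 called genes were spread over 4 of the lists. The lists were chosen with earlier results of these data known, so these counts beside the shares are descriptions and not tests.

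Among 10 partners and controls of NRF2, 9 were tested and 1 was higher. Sqstm1 encodes the autophagy receptor p62, which binds KEAP1. It read 3500.8 and 3889.2 in FtMT-Adip, against 2695.5 and 1921.7 in WT, without overlap (log2 change 0.78, SE 0.17, adjusted p = 0.0254 in limma). The call was lost without FtMT-Adip 1 (log2 change 0.81, adjusted p = 0.0771), without FtMT-Adip 2 (0.74, adjusted p = 0.0600) and without WT 2 (0.58, adjusted p = 0.0996), and with median scaling (0.70, adjusted p = 0.0524) and in the authors' normalized values (0.56, adjusted p = 0.311). Bach1, a repressor of NRF2 targets, had a log2 change of 0.44 (adjusted p = 0.181, limma), and Nfe2l1, the NRF2 relative known for control of proteasome genes, one of -0.29 (adjusted p = 0.308, limma).

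Among 30 other NRF2 targets, 26 were tested and 4 were higher. Cbr3 encodes a carbonyl reductase. It read 1224 and 808.7 in FtMT-Adip, against 314.3 and 232.1 in WT, a 4.24-fold rise (log2 change 2.08, SE 0.26, adjusted p = 0.00272 in limma), and its second probe was 2.47-fold higher (adjusted p = 0.0033 in limma). Akr1b8, an aldo-keto reductase gene, read 401.1 and 412.8 in FtMT-Adip and 254.6 and 181.2 in WT (log2 change 1.08, SE 0.20, adjusted p = 0.0132 in limma). Neither gene had overlapping groups. Ftl1, the ferritin light chain gene, which also answers to iron, read 14000.1 and 14859.2 in FtMT-Adip against 6946 and 7118.4 in WT, 2.16-fold higher (log2 change 1.11, SE 0.13, with an adjusted p of 0.00193 in limma), while its other probe was below background.

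Ephx1, the microsomal epoxide hydrolase gene, read 2719.3 and 2726.4 in FtMT-Adip, against 1834.3 and 1513.5 in WT (log2 change 0.79, SE 0.15, adjusted p = 0.0147 in limma). Its call was lost without FtMT-Adip 1 (0.74, adjusted p = 0.0803), without WT 2 (0.71, adjusted p = 0.0609) and in the authors' normalized values (0.82, adjusted p = 0.106). The median of the 26 genes was 0.20 on the log2 scale. Hmox1 and Slc7a11, named here after their values were seen because they are much used readouts of NRF2, were not called. Hmox1, the haem oxygenase gene, read 315.3 and 207.1 in FtMT-Adip and 205.6 and 192.7 in WT, and its groups overlapped after normalization, FtMT-Adip 1 alone standing clear of the other arrays (adjusted p = 0.373, limma). Slc7a11, the cystine importer gene, read 151.5 and 152.2 in FtMT-Adip and 141.5 and 145.5 in WT (log2 change 0.10, adjusted p = 0.687 in limma).

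Of 15 genes of glutathione handling, 12 were tested and 2 were higher. Both act on the breakdown side, while Ggct, Ggt5 and Oplah of the same list were not called (log2 change -0.18, -0.10 and 0.01). Chac1, an enzyme that cleaves glutathione inside the cell and a known target of the stress factor ATF4, read 993.4 and 1305.5 in FtMT-Adip, against 522.6 and 455 in WT (log2 change 1.31, SE 0.17, adjusted p = 0.00313 in limma). Anpep, a surface aminopeptidase that splits the dipeptide left from glutathione outside the cell and is also made by myeloid cells, read 503.2 and 474.2 in FtMT-Adip and 209.5 and 212.2 in WT (log2 change 1.39, SE 0.15, adjusted p = 0.00163 in limma). Glrx, the cytosolic glutaredoxin gene, had a log2 change of 0.55 (adjusted p = 0.0834, limma).

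Of 16 genes of the thioredoxin system, which holds the peroxiredoxins that sulfiredoxin repairs, 15 were tested and 0 were called. At an unadjusted p under 0.05 there were 3, namely Sesn1 with a log2 change of 0.52, Msrb1 with -0.38 and Txnrd3 with -0.34 (adjusted p = 0.119, 0.212 and 0.215 in limma). The median of the 15 genes was 0.0016. NADPH is the fuel of both reductase systems and was not itself measured. Of 12 genes listed under NADPH supply, 11 were tested and 1 was higher. This was Mthfd2, a mitochondrial one-carbon enzyme gene that is also a known ATF4 target, at 1676 and 1806.6 in FtMT-Adip against 490.2 and 544 in WT (log2 change 1.86, SE 0.16, adjusted p = 0.000656 in limma). Tkt, the transketolase gene of the pentose phosphate pathway, had a log2 change of 0.53 (adjusted p = 0.0636) and H6pd, which supplies NADPH in the endoplasmic reticulum, one of -0.51 (adjusted p = 0.0942), neither called by limma. At an unadjusted p under 0.05 in limma, 2 genes of this list were higher and 3 lower. The lower ones were H6pd, G6pdx with a log2 change of -0.48 and Idh1 with -0.45 (adjusted p = 0.129 and 0.164 in limma for G6pdx and Idh1). G6pdx is also among the other NRF2 targets, where 9 genes were higher and 1 lower at that level. The median of the NADPH supply list was -0.13.

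**Figure D4:**
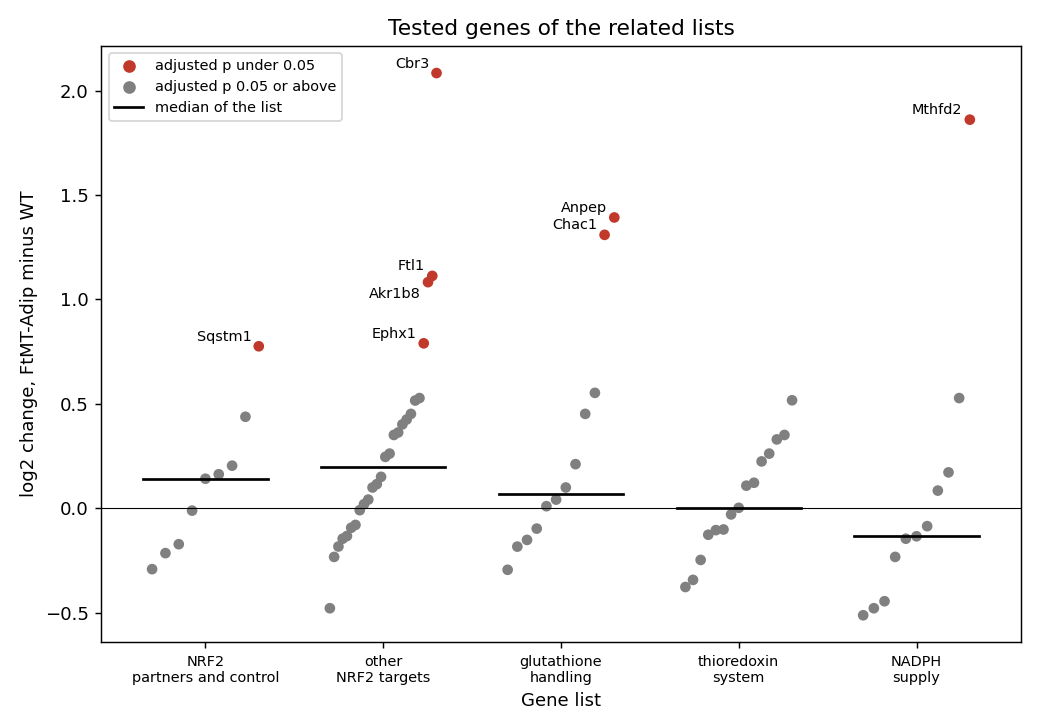
Log2 change, FtMT-Adip minus WT, of the tested genes of 5 lists around NRF2, each point a gene and each black line the median of its list. The 8 genes in red passed an adjusted p of 0.05, and all 8 lie between 0.78 and 2.08, while the thioredoxin list has none. A gene that belongs to several lists appears in each.

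The promoters of all 8 called genes of these lists were in the table and 0 of them held the TGACNNNGC core in the 300-base window, where 12.4% of all promoters did. The Chac1 window held TGATGCAA, a composite element that ATF4 is known to bind, on the opposite strand, shown here with the core in capitals (chr2:119351024-119351081, plus strand).

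Chac1: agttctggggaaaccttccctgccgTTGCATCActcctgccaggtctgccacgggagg

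TGATGCAA was present in 0.895% of all promoters and in no window of the 7 NRF2 genes that had one. Among the called genes only the Chac1 window held it, and the window of Mthfd2 did not. These matches are descriptions of letters in a window.

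The pattern of Srxn1 over the 4 arrays was set beside every other tested probe with a gene symbol, by the root mean square difference of log2 values after each probe was centred on its own mean. The 3 nearest were Igf2bp2, an RNA-binding protein gene, at 0.10, the mast cell protease gene Cpa3 at 0.11 and Ppp1r15a, a stress-induced phosphatase subunit gene, at 0.12. Their log2 changes were 1.67, 1.35 and 1.45, all called by limma. For Nfe2l2 the nearest were Spsb2, Evc and Pla2g2e, at 0.01, 0.02 and 0.02, with log2 changes of 0.48, 0.50 and 0.51 that were not called. Probes chosen by likeness have a like change between the groups by that choice, so these changes and calls are not separate results. Likeness over 4 arrays of 2 groups is a description and says nothing of shared control.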

How the data were processed

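Biotin-labelled RNA was hybridised to Illumina BeadChips, and the labels' protocols name the MouseRef-8 v2 chip. The tables hold 45281 probes, and whether they come from that chip is not settled here. The authors deposited linear intensity values without normalization and a second table titled as normalized. The sources used here do not give its method. The series value table equals the normalized one (largest difference 0). A ratio of group means and a p-value per probe stand beside the deposited normalized values, per the file headers.

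From the non-normalized intensities, values were made by normexp background correction (offset 50), quantile normalization between arrays and log2, with limma 3.58.1 in R 4.3.3. No detection p-values were among the columns used, so the planned neqc gave way to its stated fallback and every probe was set against the 1479 olfactory and vomeronasal receptor probes of its array. It was tested when a share under 0.05 of them reached its signal on 2 or more arrays. The groups were compared with lmFit and eBayes (variance trend, two-sided, 8.86 degrees of freedom, Benjamini-Hochberg over 20797 probes). Fold changes are on this scale, where the offset compresses changes of dim probes. Of the 8.86 degrees of freedom, 6.86 came from a prior variance estimated over all tested probes. The SE of a probe therefore need not match the SDs of its own arrays. Precision is limited by the number of arrays. The steps were also run on simulated data with independent noise of a single size, which is no check of the results for these genes.

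Probe names were matched to RefSeq symbols (GRCm38.p6), 22864 by symbol and 11917 by a synonym of a single gene. The members and gene lists were chosen with earlier results of these data known. All member probes are named, and of each related list every called gene, or the genes of smallest p up to 3. Signals of different probes are not compared as levels. No batch is labelled. Replicate numbers 1 and 2 are shared by the groups, and nothing states that they mark a shared litter or day. Alternatives were other offsets, scalings and filters, no variance trend, the authors' normalized table, a replicate block and leaving out each array.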

Additional observations from a re-analysis of the deposited data

How the results depend on the processing

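The number of member probes called was 3 in every alternative that kept all 4 arrays, the authors' normalized table and the fit with the replicate number as a block (replicate block) included, and 2 to 4 with 1 array left out. The number of related genes called was 6 to 9 over the alternatives and 8 with the replicate block. The number of all probes called was 695 in the authors' normalized table, 1225 with the replicate block and 652 to 1627 with 1 array left out. The replicate numbers share only a number. The differences between replicate 1 and replicate 2 correlated at -0.08 between the groups across probes, and the replicate block changed no member's call. Over 13 alternatives the member probes gave 207 values, of which 196 kept their direction and their side of the threshold, 1 call was lost (Gss ILMN_2818895 without WT 2), 1 was gained (Srxn1 ILMN_1229994 without FtMT-Adip 2) and 9 changed sign, none of them a called value. In the authors' normalized table these were Keap1 ILMN_1258406 (-0.24), Keap1 ILMN_2621346 (0.10) and Gss ILMN_2667909 (-0.069). With an array left out they were Keap1 ILMN_1258406 (-0.075 without FtMT-Adip 1 and -0.070 without WT 2, in a range of -0.075 to 0.13), Txnrd1 (0.048 without FtMT-Adip 1 and 0.031 without WT 1, in a range of -0.088 to 0.048), Keap1 ILMN_2707771 (0.0072 without FtMT-Adip 2, in a range of -0.24 to 0.0072) and Gsr (0.058 without FtMT-Adip 2, in a range of -0.23 to 0.058). The cause of these changes was not tested. Signal over background limits Gclc, Txnrd1, both Nqo1 probes and the second Nfe2l2 probe, where a change in transcript may not be detectable.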
